A study of Mus musculus with 6 samples.

Results

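Interferon-stimulated antiviral genes were followed in splenic T cell preparations from male C57BL/6 mice aged 10 weeks, comparing 3 miR-142 KO animals with 3 WT littermates. T cells were purified from the spleen of each mouse by negative selection, and 1 Affymetrix array was hybridized per animal. The KO mice lack miR-142, a microRNA of the blood lineages. How the allele was made, and in which other cells it acts, is not given in the sources used here. The gene set was a list of 44 genes known to be induced by type I interferon. Of these, 41 had a probe set assigned to them alone among the 18193 genes measured in this way. Oas1g and Ifi44 had no probe set under their names, and Isg15 had only one that the platform annotation shares between genes, so these 3 genes are given no value. Each gene was taken at its probe set with the highest mean of the 6 arrays, a choice that does not use the genotype. Values are log2 probe-set intensities, so 1 unit is a doubling, and differences are KO minus WT. Rose and fell are used only where the adjusted p of limma, corrected over all 45037 probe sets, was below 0.05. All 41 genes lay above the median level of all probe sets, so none dropped out of a filter on dim probe sets.

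Type I interferons are secreted proteins that bind a receptor made of Ifnar1 and Ifnar2. The receptor signals through the kinases Jak1 and Tyk2 to STAT proteins, which join Irf9 and bind the interferon-stimulated response element (ISRE) in front of their target genes. The products of those genes block viral entry, sense or degrade viral RNA, halt translation and modify proteins with the ubiquitin-like protein ISG15. Resting lymphocytes hold part of this program at a low tonic level without infection, and many of the genes are expressed in myeloid cells as well as in T cells.

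The mature strands of the microRNA that the KO mice lack are shown to identify the deleted molecule. They are the RefSeq entries of GRCm38.p6 at chr11:87756867-87756887 and chr11:87756903-87756925 on the plus strand, and the seed, bases 2 to 8, is in capitals.
mmu-miR-142a-5p: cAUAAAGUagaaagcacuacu
mmu-miR-142a-3p: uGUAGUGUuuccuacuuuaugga

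Promoters of members that fell, rose or were not called are shown because the ISRE is the element through which this gene set is known to be switched on together. Each window runs from 250 bases before to 50 bases after an annotated transcript start, in the direction of the gene, from RefSeq on GRCm38.p6. Capitals mark matches to the ISRE core on either strand, spelled GAAA, any 2 bases and GAAA, which reads TTTC, any 2 bases and TTTC where it lies on the opposite strand. The windows are chr19:34601919-34602218 on the minus strand for Ifit1bl1, which has a further annotated start not shown, and chr19:34640639-34640938 on the plus strand for Ifit1. Those of the genes that rose are chr12:26456403-26456702 for Rsad2 and chr7:141010695-141010994 for Ifitm3, both on the minus strand. Oas1a, which was not called, is at chr5:120907476-120907775 on the minus strand, and its 2 matches overlap. Every window shown holds a match, which only 16 of the 41 member windows do.
Ifit1bl1: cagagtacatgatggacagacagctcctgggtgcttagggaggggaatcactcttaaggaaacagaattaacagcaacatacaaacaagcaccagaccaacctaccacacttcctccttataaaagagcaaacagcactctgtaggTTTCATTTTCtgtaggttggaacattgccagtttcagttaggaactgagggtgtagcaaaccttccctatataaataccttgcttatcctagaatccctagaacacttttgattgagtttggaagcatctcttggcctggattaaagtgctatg
Ifit1: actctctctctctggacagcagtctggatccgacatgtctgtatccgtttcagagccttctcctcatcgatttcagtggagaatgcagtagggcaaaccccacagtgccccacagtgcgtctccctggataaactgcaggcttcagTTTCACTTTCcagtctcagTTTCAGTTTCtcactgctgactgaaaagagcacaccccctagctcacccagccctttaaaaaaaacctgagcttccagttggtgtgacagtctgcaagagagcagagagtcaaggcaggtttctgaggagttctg
Rsad2: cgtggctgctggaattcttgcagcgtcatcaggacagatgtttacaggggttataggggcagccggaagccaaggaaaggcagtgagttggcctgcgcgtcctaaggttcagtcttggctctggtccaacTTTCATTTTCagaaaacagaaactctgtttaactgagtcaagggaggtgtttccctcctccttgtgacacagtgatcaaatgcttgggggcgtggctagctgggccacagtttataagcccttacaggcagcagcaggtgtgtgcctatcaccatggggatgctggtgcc
Ifitm3: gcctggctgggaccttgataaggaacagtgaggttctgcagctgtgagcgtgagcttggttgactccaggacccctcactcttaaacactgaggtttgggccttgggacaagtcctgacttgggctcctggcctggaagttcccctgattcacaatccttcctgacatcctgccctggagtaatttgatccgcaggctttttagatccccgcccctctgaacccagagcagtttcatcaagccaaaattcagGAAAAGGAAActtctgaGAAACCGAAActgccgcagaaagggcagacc
Oas1a: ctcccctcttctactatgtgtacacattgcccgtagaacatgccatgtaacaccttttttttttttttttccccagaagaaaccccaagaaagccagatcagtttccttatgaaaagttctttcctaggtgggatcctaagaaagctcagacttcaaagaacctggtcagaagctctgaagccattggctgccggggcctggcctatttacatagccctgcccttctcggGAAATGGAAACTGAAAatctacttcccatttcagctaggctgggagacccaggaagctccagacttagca

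The KO preparations differed from WT in cell type markers, and these values stand beside every result below. All 11 measured T cell markers fell, and their mean level was 10.43, 9.20 and 10.61 in the 3 KO arrays, against 12.02 to 12.05 in WT arrays. Of 12 neutrophil markers 10 rose, with means of 10.27 to 13.07 in KO and 6.27 to 7.33 in WT. Of 12 markers of mast cells, basophils and eosinophils 10 rose, with means of 9.51 to 9.94 in KO and 5.78 to 5.86 in WT. Of 9 monocyte and macrophage markers 8 rose, with means of 8.79 to 9.90 in KO and 6.01 to 6.36 in WT, and 5 of 6 erythroid markers rose. Among the neutrophil markers, the elastase gene Elane was at 12.96, 12.56 and 12.72 in KO and 6.83, 6.81 and 6.86 in WT. Others were less even: Ltf was at 13.17, 8.02 and 9.70 in KO and 6.69, 5.51 and 5.43 in WT, and Mmp8 and Mmp9 were not called. Of 9 dendritic cell markers, which include the member gene Bst2, 4 rose, with means of 8.03 to 8.25 in KO and 7.21 to 7.39 in WT. Of 7 NK cell markers 5 fell, with means of 6.90 to 7.76 in KO and 8.05 to 8.56 in WT. The remaining NK cell markers, Ncr1 and Klra8, were not called, with differences of 0.12 and 1.09. Of 9 B cell markers 1 rose, with means of 6.40 to 7.14 in KO and 6.13 to 6.61 in WT. In such bulk RNA, fewer cells of a type and less RNA per cell cannot be told apart. The part of cell composition in the differences of the interferon genes was not tested. The transcript listed as Mir142 was at 5.97, 5.88 and 5.90 in KO and 7.93, 8.13 and 7.67 in WT, and whether its probes lie in the deleted part is not known here. Hybridization controls, spiked in at fixed amounts, averaged 9.80 to 9.91 in KO and 10.10 to 10.30 in WT, and signs of RNA quality differed between genotypes too. The 18S control was at 7.86, 9.15 and 9.19 in KO, with KO replicate 1 apart, and at 9.47 to 9.66 in WT. The 3′ minus 5′ signal was 0.32 to 0.40 in KO and 0.16 to 0.23 in WT for Actb, and -0.10 to 0.18 in KO and -0.18 to -0.15 in WT for Gapdh. The part of RNA quality in the results was not tested.

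The comparison asked which interferon-stimulated genes differ when miR-142 is absent. The set did not move as one. Of 41 measured members 23 fell and 6 rose in KO, and 12 were not called. Over all 18193 genes 18.6% fell and 18.6% rose, and among the 9024 genes within the members' range of levels 28.6% fell and 28.5% rose. Among the 11483 genes above the median level 26% fell and 26.8% rose. These shares also stand beside the counts of the small role groups below. The members' median difference was -0.64, against -0.06 for all genes, with a range from -4.06 for Ifit1bl1 to 3.87 for Ifitm3. The 3 KO values lay below the 3 WT values for 24 members, which 29.7% of all genes did, and above them for 10 members, which 24.1% of all genes did. When each array was instead scaled to its hybridization controls, which moved the median of all probe sets to 0.29, against -0.08 as deposited, 19 members fell and 13 rose. Over all 45037 probe sets that scaling gave 2337 that fell and 17309 that rose, against 6986 and 6242 as deposited.

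**Figure D1:**
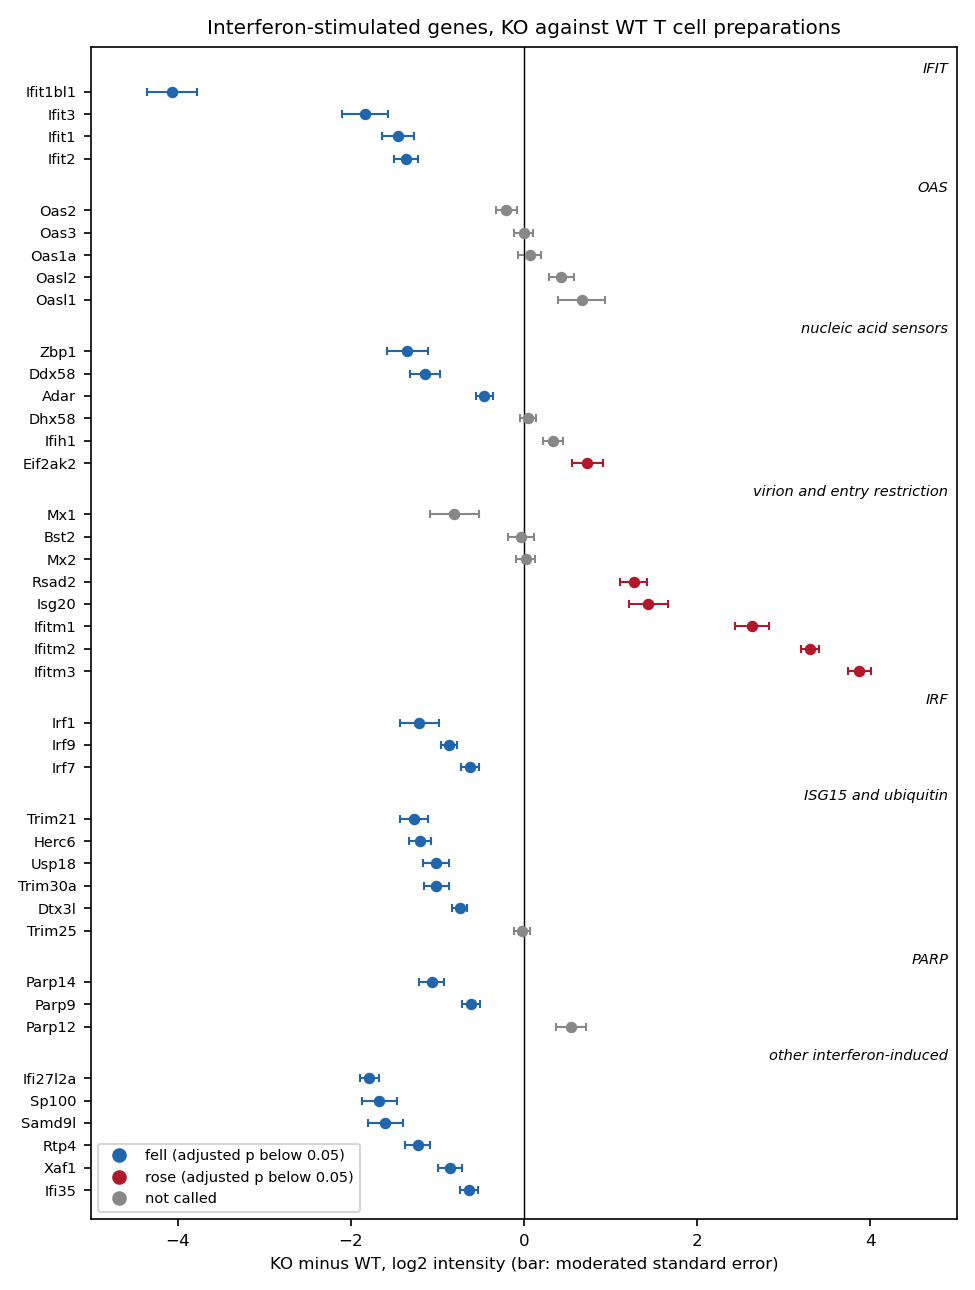
Difference KO minus WT in log2 intensity for the 41 measured interferon-stimulated genes, grouped by role, with the moderated standard error as bars (3 KO and 3 WT arrays). The 23 genes that fell lie left of 0 and include all 4 of the IFIT group. Of the 6 that rose, 5 belong to the group labelled virion and entry restriction, which also holds Rsad2 and Isg20.

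The IFIT proteins bind viral RNA and block its translation. All 4 of the measured family members fell, against 28.6% of genes within the members' range of levels. Ifit1bl1, a gene of the same family, had log2 intensities of 7.83, 6.76 and 7.61 in KO, against 11.54, 11.10 and 11.75 in WT. The groups did not overlap, and KO replicate 2 was the lowest array. This fall of 4.06 ± 0.29 (SE, n = 3 per group) corresponds to 16.7-fold (adjusted p = 0.0001). Ifit3, which partners Ifit1 on RNA in human cells, was at 7.51, 6.78 and 7.93 in KO and 9.37, 9.11 and 9.25 in WT. It fell by 1.83 ± 0.27 (adjusted p = 0.002), again with KO replicate 2 lowest and with more spread among KO arrays than among WT arrays. Ifit1, which recognises the cap of foreign RNA, fell by 1.45 ± 0.18, and Ifit2, its relative, fell by 1.36 ± 0.14. In the GRCm38.p6 gene table Ifit2, Ifit3 and Ifit1bl1 follow one another directly among protein-coding genes, and 2 genes lie between Ifit1bl1 and Ifit1.

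The oligoadenylate synthetases make the messenger that activates RNase L, which then cuts RNA. None of the 5 measured OAS genes passed the test in either direction. Oas1a was at 9.51, 9.95 and 9.78 in KO and 9.58, 9.62 and 9.85 in WT, so that the groups overlapped, and its difference was 0.06 with a 95% interval from -0.25 to 0.38. Oas3 differed by -0.0032 (-0.26 to 0.25) and Oas2 by -0.20 (-0.48 to 0.07). A missed threshold does not show that these genes are equal between genotypes. The OAS-like genes had KO values above WT values in every array but did not pass the test. Oasl1 differed by 0.66 (0.02 to 1.31, adjusted p = 0.12), with KO values of 7.56, 8.78 and 7.98 against WT values of 7.43, 7.40 and 7.50. Oasl2 differed by 0.43 (0.09 to 0.77, adjusted p = 0.065). Under scaling to hybridization controls Oas1a, Oasl1 and Oasl2 were called higher in KO, by 0.43, 1.03 and 0.80, and Oas2 and Oas3 changed sign to 0.16 and 0.36. That scaling also moved the median of all probe sets to 0.29.

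Sensors of nucleic acids went both ways. Of 6 measured genes Zbp1, Ddx58 and Adar fell, Eif2ak2 rose, and Ifih1 and Dhx58 were not called. Zbp1, which senses Z-form nucleic acid and triggers necroptosis, was at 8.38, 7.64 and 8.59 in KO and 9.48, 9.47 and 9.70 in WT. Its fall of 1.35 ± 0.23 (adjusted p = 0.0046) was matched by its other probe set, which fell by 1.29. Ddx58, which encodes the RNA sensor RIG-I, was at 8.89, 8.37 and 9.04 in KO and 9.99, 9.94 and 9.83 in WT. It fell by 1.15 ± 0.17 (adjusted p = 0.0023), and its 2 other probe sets fell by 1.19 and 0.65. For both genes KO replicate 2 was the lowest array and no KO value reached a WT value. Adar, which edits adenosine in double-stranded RNA, fell by 0.46 ± 0.09, a call lost under scaling to hybridization controls, and of its 2 other probe sets 1 fell by 0.37 (adjusted p = 0.045) and 1 differed by -0.78 (adjusted p = 0.14).

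Eif2ak2 encodes PKR, the kinase that halts translation on double-stranded RNA. It was at 7.89, 8.63 and 8.32 in KO, against 7.45, 7.60 and 7.62 in WT. The groups did not overlap, and KO replicate 1 was nearest to the WT arrays. Its rise of 0.73 ± 0.18 (adjusted p = 0.02) was lost when KO replicate 3, WT replicate 1, WT replicate 2 or WT replicate 3 was left out, with adjusted p from 0.051 to 0.076. Of its 2 other probe sets 1 rose by 0.98 and 1 differed by 0.42 (adjusted p = 0.13). Ifih1, which encodes the RNA sensor MDA5, differed by 0.33 (0.06 to 0.61, adjusted p = 0.071). Dhx58, which encodes their regulator LGP2, differed by 0.04 (-0.17 to 0.26), and both genes were called higher in KO under scaling to hybridization controls. The median of all probe sets was then 0.29. Whether Ddx58 and Ifih1 differ from each other in their response was not tested.

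The group labelled virion and entry restriction held most of the rises. It also includes Rsad2 and Isg20, whose products, described below, act on nucleotides and RNA. Of its 8 measured genes 5 rose (62.5%) and none fell at the threshold, whereas 3 were not called. Among genes within the members' range of levels 28.5% rose and 28.6% fell. Ifitm3, a membrane protein that hinders viral fusion in endosomes, was at 12.27, 12.24 and 12.20 in KO and 8.66, 8.26 and 8.17 in WT. Its rise of 3.87 ± 0.14 (adjusted p = 1.2e-05), or 14.7-fold, was the largest of the members, and the 3 KO arrays differed from one another by less than the WT arrays did. Ifitm2, its close relative, was at 11.86, 11.75 and 11.67 in KO and 8.43, 8.33 and 8.62 in WT. It rose by 3.30 ± 0.11 (adjusted p = 9.5e-06), with no KO value near the WT range. Ifitm1, which acts at the cell surface, rose by 2.63 ± 0.20, with means of 11.08 ± 0.34 in KO and 8.45 ± 0.25 in WT (SD, n = 3). These 3 genes are neighbours in the gene table, with Ifitm1 between Ifitm2 and Ifitm3, and their similar sequences can share hybridization, so their levels may not be separate measurements. In the same KO arrays the myeloid and granulocyte markers given above were higher too.

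Rsad2, which encodes viperin, an enzyme that makes a chain-terminating nucleotide, averaged 10.27 ± 0.23 in KO and 9.01 ± 0.21 in WT (SD, n = 3). It rose by 1.26 ± 0.15 (adjusted p = 0.00086), and its 2 other probe sets rose by 1.60 and 1.13. Isg20, an exonuclease that degrades RNA, was at 10.54, 11.38 and 10.62 in KO and 9.49, 9.23 and 9.52 in WT, and rose by 1.44 ± 0.22 with KO replicate 2 highest. Bst2, which encodes tetherin, the protein that holds budding virions at the cell surface, was at 9.67, 9.88 and 10.17 in KO and 9.94, 9.77 and 10.11 in WT. Its groups overlapped and its difference was -0.03 (-0.39 to 0.32). Mx1, a GTPase that blocks viral ribonucleoproteins and whose C57BL/6 allele is known to give no functional protein, differed by -0.81 (-1.47 to -0.14, adjusted p = 0.071). The related Mx2 differed by 0.02 (-0.25 to 0.28). Rsad2 lies directly beside Cmpk2, a nucleotide kinase outside the 44 genes, which also rose, by 1.35 ± 0.18, and is named here after its value was seen.

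**Figure D2:**
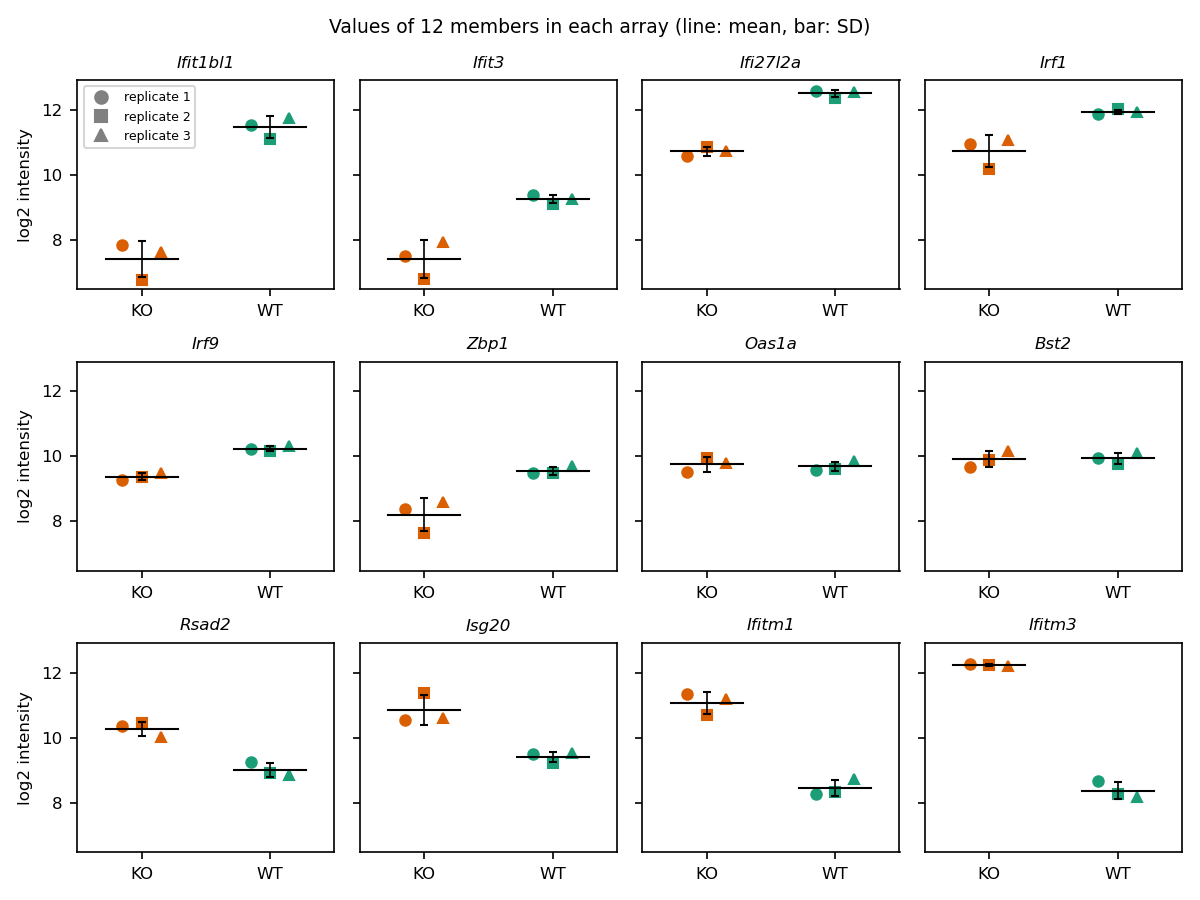
Log2 intensity of 12 members in each of the 3 KO and 3 WT arrays, with the mean as a line and the SD as a bar, and with the replicate number as the marker shape. KO values lie below all WT values for Ifit1bl1, Ifit3, Ifi27l2a, Irf1, Irf9 and Zbp1, overlap them for Oas1a and Bst2, and lie above them for Rsad2, Isg20, Ifitm1 and Ifitm3.

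The interferon regulatory factors on the list switch on other members. All 3 fell, against 28.6% of genes within the members' range of levels. Irf1, which also responds to interferon gamma, was at 10.95, 10.16 and 11.06 in KO and 11.87, 12.01 and 11.92 in WT. It fell by 1.21 ± 0.23 (adjusted p = 0.0064), with KO replicate 2 lowest. Irf9, the DNA-binding partner of the STAT proteins downstream of the interferon receptor, was at 9.27, 9.37 and 9.48 in KO and 10.23, 10.17 and 10.30 in WT. Its fall of 0.86 ± 0.09 (adjusted p = 0.00051) came with little spread in either group, and KO replicate 2 was not its lowest array. Irf7, the factor that amplifies interferon production, fell by 0.63 ± 0.10 (adjusted p = 0.0036), a call lost under scaling to hybridization controls, where the difference was -0.26.

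Genes of ISG15 conjugation and of ubiquitin ligases fell as well, 5 of the 6 measured (83.3%). Among genes within the members' range of levels 28.6% fell. Trim21, a ligase that recognises antibody-coated virus in the cytosol, was at 9.06, 8.68 and 9.31 in KO and 10.24, 10.36 and 10.26 in WT. Its fall was 1.27 ± 0.16 (adjusted p = 0.00097), and its other probe set fell by 0.96. Herc6, the ligase that attaches ISG15 in the mouse, was at 7.30, 7.52 and 7.74 in KO and 8.65, 8.68 and 8.85 in WT. It fell by 1.20 ± 0.13 (adjusted p = 0.00053), its 3 other probe sets fell too, with differences of -0.58, -0.85 and -0.91, and KO replicate 1 was the lowest array in place of KO replicate 2. Usp18, which removes ISG15 and restrains signalling at the interferon receptor, fell by 1.02 ± 0.15. Trim30a, a mouse gene that restrains signalling by Toll-like receptors, fell by 1.01 ± 0.14, and Dtx3l, a ligase that pairs with Parp9, fell by 0.74 ± 0.08. Trim25, the ligase that acts on RIG-I, differed by -0.03 (-0.25 to 0.20), and its 2 other probe sets differed by 0.02 and 0.09. Under scaling to hybridization controls Trim25 was called higher in KO, by 0.34 (adjusted p = 0.047), where the median of all probe sets was 0.29.

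Of the 3 enzymes that attach ADP-ribose, Parp14 and Parp9 fell and Parp12 was not called. Parp14 was at 8.72, 8.56 and 9.06 in KO and 9.71, 9.95 and 9.86 in WT, and fell by 1.06 ± 0.14 (adjusted p = 0.0014). Its dim other probe set differed by -0.27 (adjusted p = 0.37). Parp9 was at 9.65, 9.91 and 9.92 in KO and 10.41, 10.45 and 10.45 in WT, and its fall of 0.61 ± 0.10 was lost under scaling to hybridization controls. Dtx3l lies directly between Parp9 and Parp14 in the gene table, and each of these neighbours fell. Parp12, which blocks translation of viral RNA, had KO values of 9.30, 9.76 and 9.53 against WT values of 8.75, 8.92 and 9.30. KO replicate 1 and WT replicate 3 met at the edge of the groups, and the difference of 0.54 (0.14 to 0.94, adjusted p = 0.053) did not pass the test.

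The remaining 6 measured members, interferon-induced genes of mixed or less defined action, all fell. The share within the members' range of levels was 28.6%. Ifi27l2a, a small membrane protein, was at 10.56, 10.86 and 10.72 in KO and 12.58, 12.36 and 12.56 in WT. Its fall of 1.79 ± 0.11 (adjusted p = 6.3e-05) was even across the KO arrays. Sp100, a component of PML nuclear bodies, was at 9.50, 8.84 and 9.69 in KO and 11.02, 11.00 and 11.02 in WT. It fell by 1.67 ± 0.20 (adjusted p = 0.00095), with KO replicate 2 again lowest, and its other probe set fell by 0.67. Samd9l, a restriction factor for poxviruses, fell by 1.60 ± 0.20, and Rtp4, named for a role in receptor transport, fell by 1.23 ± 0.14. Xaf1, which promotes cell death, fell by 0.86 ± 0.14. Ifi35, a cytosolic interferon-induced protein, fell by 0.64 ± 0.10, a call lost under scaling to hybridization controls.

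Members that fell and members that rose both varied more among KO arrays than among WT arrays. For those that fell the median SD was 0.27 in KO and 0.08 in WT, and for those that rose 0.28 and 0.18. Over all genes it was 0.13 in KO and 0.11 in WT. For genes within the members' range of levels it was 0.15 in KO and 0.11 in WT. Relative to the WT mean, the median of the 23 genes that fell was -1.17, -1.32 and -0.87 in KO replicates 1, 2 and 3. KO replicate 2 was the lowest KO array for 14 of the 23 genes (60.9%), KO replicate 1 for 9 (39.1%) and KO replicate 3 for 0. Among all genes that fell, KO replicate 2 was lowest for 57.7%, KO replicate 1 for 25.7% and KO replicate 3 for 16.7%. KO replicate 3 was the highest KO array for 19 of the 23 (82.6%), against 43.2% of all genes that fell. For KO replicate 1 these shares were 8.7% and 34.2%. The T cell markers averaged 10.43, 9.20 and 10.61 in KO replicates 1, 2 and 3. Whether the order of the members follows them was not tested. For the 6 members that rose, the medians were 2.12, 2.11 and 1.98 above the WT mean in the 3 KO arrays. Without KO replicate 2, 23 members fell and 7 rose.

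**Figure D3:**
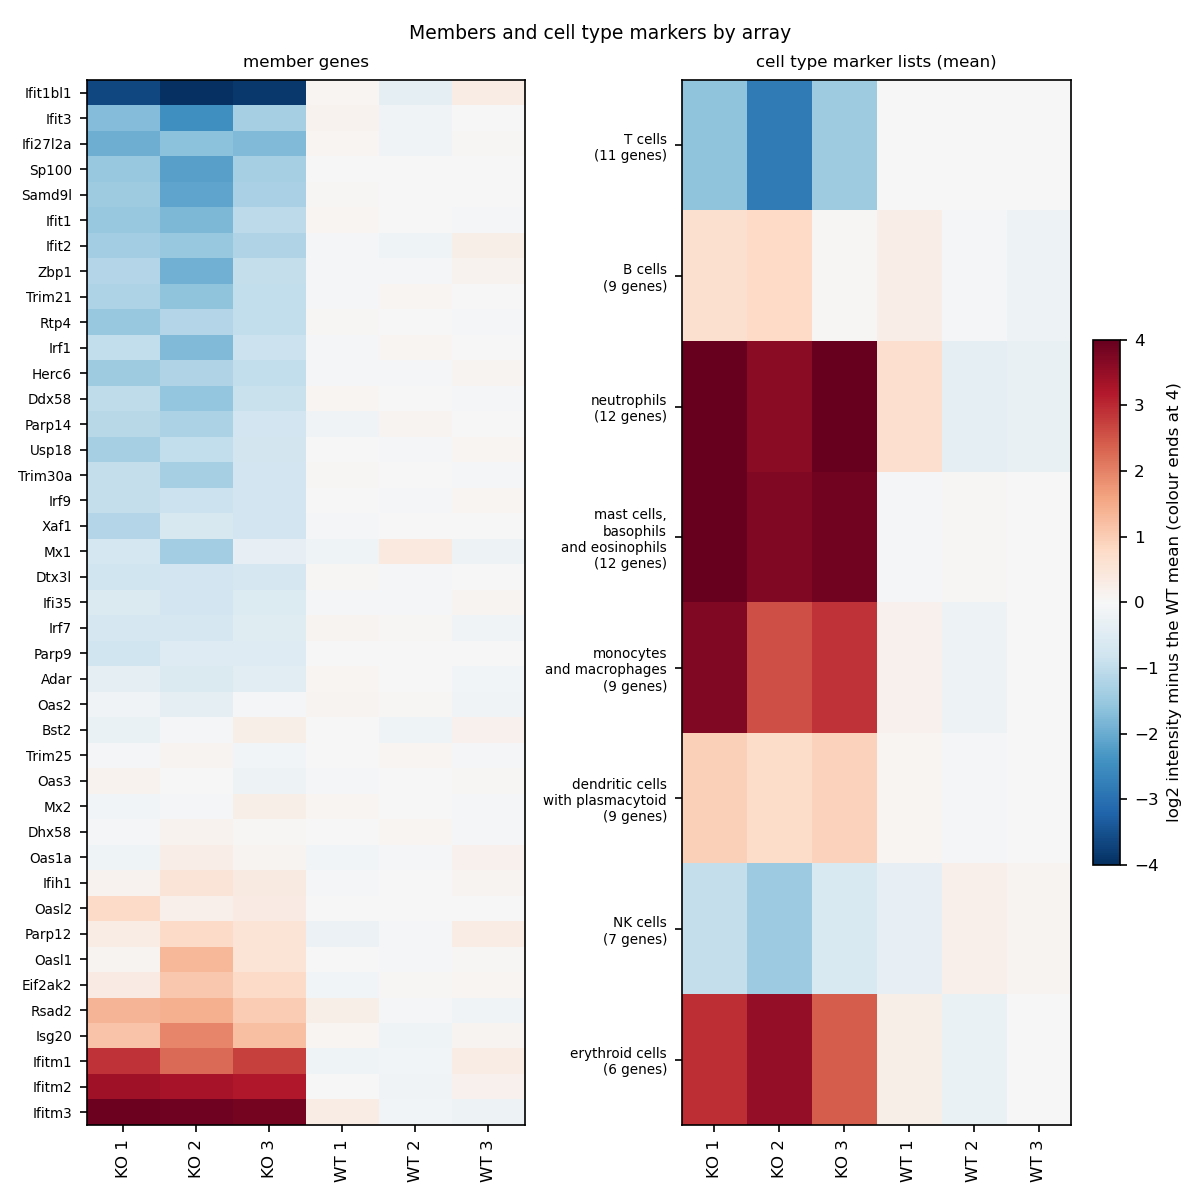
Log2 intensity minus the mean of the WT arrays for the 41 members (left) and for the mean of each cell type marker list (right), with 1 column per array. Members that fell are blue in all 3 KO arrays, and many of them are deepest in KO replicate 2. The T cell markers are also lowest there, at 9.20, and the neutrophil markers are highest in KO replicate 1, at 13.07. Whether members and markers are linked was not tested.

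The rest of the pathway was examined through lists of genes outside the 44. Of 74 other interferon-inducible genes measured, 53 fell (71.6%) and 9 rose (12.2%), with a median difference of -0.65. Over all genes 18.6% fell and 18.6% rose, and above the median level 26% fell and 26.8% rose. The largest falls on this list were those of Slfn1, a regulator of lymphocyte growth, which fell by 2.49 ± 0.32, of the chemokine Ccl5, which fell by 2.23 ± 0.22, and of the membrane protein gene Ms4a4c, which fell by 2.20 ± 0.28. The largest rises were those of Mlkl, the effector of necroptosis, by 3.12 ± 0.21, of Ube2l6, the conjugating enzyme for ISG15, by 2.06 ± 0.36 and of Ifi30, a lysosomal thiol reductase of antigen presentation, by 2.02 ± 0.26. Ube2l6 thus differed in direction from Herc6 and Usp18 of the same pathway. It was at 7.94, 8.92 and 7.35 in KO and 6.10, 5.80 and 6.14 in WT.

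Receptor and signalling genes fell more often than they rose, 9 (60%) against 2 (13.3%) of 15 measured. Over all genes 18.6% fell and 18.6% rose, and above the median level 26% fell and 26.8% rose. Ifnar1, a chain of the type I interferon receptor, was at 9.17, 9.07 and 9.39 in KO and 9.63, 9.76 and 9.83 in WT, and fell by 0.53 ± 0.11 (adjusted p = 0.0097). Its partner chain Ifnar2 was at 11.30, 10.88 and 11.00 in KO and 10.26, 10.30 and 10.40 in WT, and rose by 0.74 ± 0.12 (adjusted p = 0.0036). The receptor chains went in opposite directions, with no overlap between genotypes for either. The kinases Jak1 and Tyk2 fell by 1.30 ± 0.18 and 0.59 ± 0.13, the dim Stat2 fell by 0.38 ± 0.09, and Socs1, an inhibitor of the kinases, fell by 0.91 ± 0.19.

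Of 15 genes that sense infection and induce interferon, 8 fell (53.3%) and 4 rose (26.7%), the second a share near the 26.8% of all genes above the median level. Irf3, the factor that starts interferon transcription, fell by 0.72 ± 0.11 (adjusted p = 0.0025). The 4 that rose, named after their values were seen, were the DNA sensor listed here as Cgas by 0.94, Irf5 by 1.60, Irf8 by 2.99 and Unc93b1, a chaperone of Toll-like receptors, by 1.98. Irf8 is itself among the 4 of 9 dendritic cell markers that rose, and Irf5 and Unc93b1 are known from myeloid and B cells. Of 9 monocyte and macrophage markers 8 rose, and of 9 B cell markers 1 rose. The part of these cells in the rises was not tested. Of 10 measured interferon genes 7 were not called, 2 fell (20%) and 1 rose (10%), while over all genes 18.6% fell and 18.6% rose. Ifnb1, the gene of interferon beta, was at 5.23, 5.32 and 5.26 in KO and 5.49, 5.31 and 5.16 in WT. Those that were called are named after their values were seen. Ifng, the interferon of activated T and NK cells, was at 6.90, 6.13 and 7.06 in KO and 8.39, 8.33 and 8.95 in WT and fell by 1.86 ± 0.27. The T cell markers and most of the NK cell markers given above were lower in the same KO arrays. The part of these cell types in the values of Ifng and Ccl5 was not tested. Ifnz fell by 0.79, and Ifna5, at a mean of 4.72 in KO and 4.38 in WT, rose by 0.33. The levels of Ifna5 and Ifnb1 lie below 5.77, the median level of all probe sets. Over all 4 lists, 72 of 114 genes fell (63.2%) and 16 rose (14%). Under scaling to hybridization controls 35 fell and 29 rose, while over all 45037 probe sets 2337 fell and 17309 rose.

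ISRE letters were found in promoters of members of all 3 outcomes. Of 41 members 31 had at least 1 window in the RefSeq promoter table, 41 windows in all. The ISRE core stood on either strand in 16 of these windows (39%) and in 3.44% of all 32851 windows. Counted by gene, it was present for 6 of 17 members that fell, for 4 of 6 that rose and for 4 of 8 that were not called. Over all 27025 genes with a window the share was 3.99%. Positions count from the start, with bases before it negative. In Ifit1 the 2 matches begin at -104 and -85, and in Ifit3 they begin at -156 and -122, all on the strand opposite to the gene. Ifitm3 has its 2 matches just after the start, beginning at bases 3 and 20, and Rsad2 has 1 match, at -120. The letters TTCNNNGAA, the core of the gamma-activated sequence, stood in 9 of the 41 member windows (22%), among them those of Irf1 and Ifitm3, and in 8.3% of all windows. A match is a description of letters and not of a bound site.

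**Figure D4:**
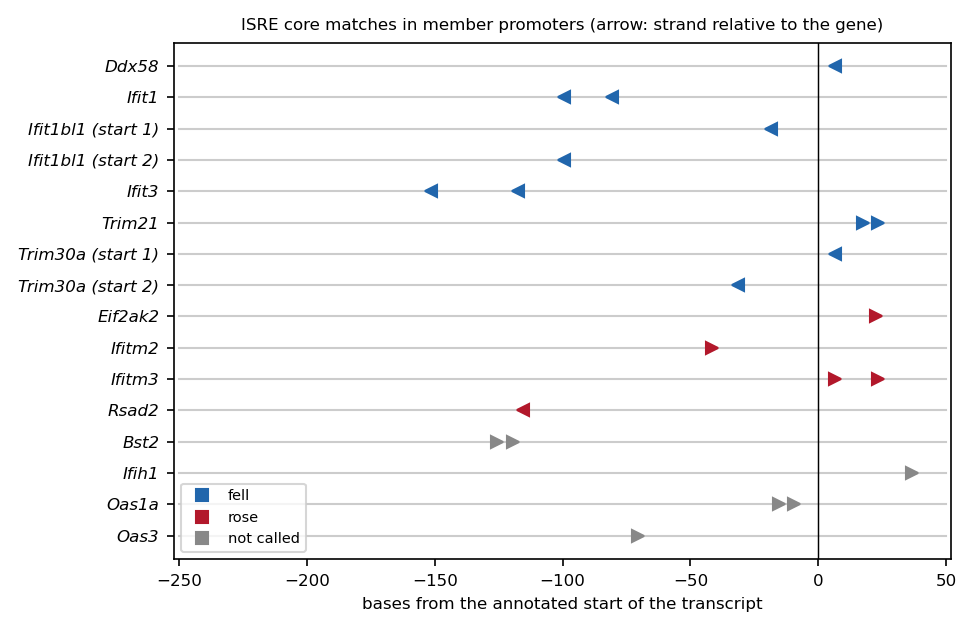
Positions of matches to the ISRE core in member promoters, in bases from the annotated transcript start, with the arrow giving the strand relative to the gene and the colour giving whether the gene fell, rose or was not called. Matches lie within windows from 250 bases before to 50 bases after the start and occur in genes of all 3 outcomes.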

How the data were processed

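The authors deposited log2 probe-set intensities which, per the submitters' processing notes, were made with RMA (version not given in the sources used here). They come from 1-colour Affymetrix arrays of 3 KO and 3 WT animals, and the number of arrays limits the precision. Values were used as deposited. Of 45101 probe sets 64 controls were left out. The platform annotation gave 1 gene for 34945 probe sets, several for 932 and did not list 9160, and the Entrez IDs of all 41 members matched the GRCm38.p6 table.

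limma 3.58.1 in R 4.3.3 fitted genotype with lmFit and eBayes, and its two-sided p-values were corrected over 45037 probe sets by Benjamini-Hochberg. Intervals are 95% from the same fit, unadjusted. The fit was run on simulated data with the same spread in KO and WT. Members that fell had a median SD of 0.27 in KO and 0.08 in WT. That run therefore does not show how the fit behaves for them. Members and lists were chosen with earlier results of these data known. Values in every array are given for up to 2 falls and 2 rises per role group, and for other members as the text needs. In the 4 pathway lists Ifnar1, Ifnar2, Jak1, Tyk2, Stat2, Irf3, Socs1 and the 3 largest falls and rises are named, and 1 further gene set to be named was not analysed here. The labels tie no KO animal to a WT animal, so the replicate numbers were not used as pairs. Deviations of same-numbered KO and WT arrays from their group means had correlations of 0.10, -0.24 and -0.20. With 3 arrays per group these cannot settle whether animals were paired. All deposited sample columns were used.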

Additional observations from a re-analysis of the deposited data

How the results depend on the processing

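The count of members that fell was 22 to 24 under the alternatives run, except 19 under scaling to hybridization controls, and 24 of the 29 called members kept their call and direction under all 14 refits. Under that scaling 13 members rose, the median difference of the members was -0.27, and of the 114 pathway genes 35 fell and 29 rose. Over all 45037 probe sets it gave 2337 that fell and 17309 that rose, with a median of 0.29. Calls of Adar, Irf7, Parp9 and Ifi35 were lost there (-0.09, -0.26, -0.25 and -0.27), and that of Eif2ak2 without KO replicate 3 or any WT replicate. With the replicate number as a block 23 members fell and 6 rose, 62 pathway genes fell and 15 rose, and the block changed no call of a member. Leaving out each array in turn gave 23 to 24 members that fell and 5 to 9 that rose, and 54 to 68 pathway genes that fell. Parp12 was called higher under that scaling (0.0036) and with a filter on low values (adjusted p = 0.04), trend and robust fitting (0.041), array weights (0.025), 1 test per gene in place of 1 per probe set (0.041, with its value the same) and without KO replicate 1 (0.043) or WT replicate 3 (0.023). Oasl2, Ifih1, Oasl1 and Mx1 passed under some alternatives too, each in its reported direction, and Trim25 passed against its reported direction under scaling to hybridization controls (adjusted p = 0.047).

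Under the alternatives run, signs changed for members that were not called and for no called member. Under repeated quantile normalization Dhx58 was at -0.0659 and Mx2 at -0.0258, and Oas3 was at 0.0169 with median centring. Under scaling to hybridization controls Oas2, Oas3, Bst2 and Trim25 were at 0.16, 0.36, 0.33 and 0.34. Bst2 was at 0.058 with array weights, and Trim25 at 0.0295 with the mean of its probe sets and at 0.0237 and 0.09 in its other probe sets. With arrays left out in turn, the lowest and highest values were -0.0349 and 0.1823 for Oas1a, -0.0827 and 0.0928 for Oas3, -0.0056 and 0.0909 for Dhx58, -0.0838 and 0.0854 for Mx2, -0.1674 and 0.0843 for Bst2, and -0.0972 and 0.0137 for Trim25. The causes were not tested. The deposited values carry no detection call, which limits what can be said of the dim interferon genes.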
